A study of Mus musculus with 23 samples.

Results

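The genes described here are 6 genes of heart and striated muscle, Nppb, Nppa, Tnnc1, Tnnt2, Atp2a1 and Actn3, followed in mouse embryonic stem (ES) cells that received an activator form of serum response factor (SRF). They were found as all probe sets of the deposited array table that the platform annotation pairs with these symbols. This gave 7 probe sets, 1 for each gene and 2 for Actn3, of 12502 on the array, and all 7 passed the filter on dim signals that left 9643 probe sets to test. Tnnc1 passed it only through the 4 arrays on which it was highest. The plasmid under test was SRF-VP16, which joins SRF to the activation domain of the herpes virus protein VP16. The labels name SRFdM-VP16 as its control, without saying what dM stands for, and a vector was the other control. Each of the 3 plasmids was put into 4 ES cell lines, E81 (-/-), E100 (-/-), E99 (+/-) and wild-type E14, and RNA was taken at 72 h. The 12 groups held 2 arrays each, except for E100 with vector, which held 1, so that 23 arrays were compared. The vector arrays of E99 are titled E14-99+/- and its other arrays E99-/+, and both were taken as 1 line, an assumption on which the E99 vector values rest. Which gene -/- and +/- refer to is not named in the labels, which give neither the promoter of the plasmids nor the share of cells that took them up.

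Nppb and Nppa encode B-type and atrial natriuretic peptide, hormones that heart muscle secretes under load and that act through guanylyl cyclase receptors on kidney and blood vessels. Tnnc1 encodes the calcium-binding troponin subunit of heart and slow skeletal muscle, and Tnnt2 encodes the cardiac troponin subunit that ties the complex to tropomyosin. Atp2a1 encodes the calcium pump of the sarcoplasmic reticulum in fast skeletal muscle, and Actn3 encodes the actin-crosslinking alpha-actinin of fast-fibre Z-discs. SRF binds a short DNA element, the CArG box, in many cytoskeletal and muscle genes, where it normally works together with cofactors, among them the myocardin family. ES cells are pluripotent and do not carry out a muscle programme, so the question put to the arrays was which of these genes an SRF activator turns on there.

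The sequence upstream of a gene's start is shown for the 2 members with the largest rise, Nppb and Tnnc1, and for their relatives Nppa and Tnnt2, which did not pass the test. Each is the 250 bases before the annotated start, from RefSeq on GRCm38.p6, 5′ to 3′ on the plus strand, and capitals mark the motifs found by a search of both strands. The windows are chr4:147985650-147985899 for Nppb, chr4:148000472-148000721 for Nppa, chr14:31208062-31208311 for Tnnc1 and chr1:135836084-135836333 for the first of 2 annotated starts of Tnnt2.
Nppb: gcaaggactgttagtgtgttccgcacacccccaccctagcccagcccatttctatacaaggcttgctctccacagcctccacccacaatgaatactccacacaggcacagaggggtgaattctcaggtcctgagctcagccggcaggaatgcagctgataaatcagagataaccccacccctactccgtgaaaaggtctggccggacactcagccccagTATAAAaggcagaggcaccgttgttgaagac
Nppa: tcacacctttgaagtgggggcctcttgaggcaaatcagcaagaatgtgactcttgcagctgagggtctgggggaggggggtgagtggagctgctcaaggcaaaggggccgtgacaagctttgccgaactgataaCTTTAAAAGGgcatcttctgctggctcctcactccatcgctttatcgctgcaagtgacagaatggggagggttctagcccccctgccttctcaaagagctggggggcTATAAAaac
Tnnc1: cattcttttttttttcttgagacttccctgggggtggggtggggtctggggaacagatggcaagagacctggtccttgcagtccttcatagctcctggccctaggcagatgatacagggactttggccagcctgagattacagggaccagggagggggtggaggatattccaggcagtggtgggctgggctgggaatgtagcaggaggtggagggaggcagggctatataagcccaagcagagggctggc
Tnnt2: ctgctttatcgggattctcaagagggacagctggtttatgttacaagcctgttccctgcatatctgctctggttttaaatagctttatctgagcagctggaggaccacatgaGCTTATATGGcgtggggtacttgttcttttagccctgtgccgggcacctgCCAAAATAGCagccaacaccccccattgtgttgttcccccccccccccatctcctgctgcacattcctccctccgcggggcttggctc
No exact CArG box was found in these windows or in those of Atp2a1 and the second Tnnt2 start, and the motif was present in 482 of all 32851 promoter windows of that length, or 1.47%. A CArG-like match with 1 of its outer C or G bases changed, a class added after the exact search, was present in 12.4% of all windows. Nppa had 1 such match, CTTTAAAAGG at positions -116 to -107 before the start. Tnnt2 had 2, GCTTATATGG at -138 to -129 and CCAAAATAGC at -88 to -79. The 6 bases TATAAA, also present in 12.4% of all windows, lay at -31 to -26 in Nppb and at -9 to -4 in Nppa, and did not overlap the CArG-like match. A motif match is a description of the letters and not a measured site.

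Values are array intensities as deposited, on a linear scale, and 23.4% to 43.6% of those on each array did not exceed 0. For the tests, intensities under 58 (the 40th percentile of all values) were set to 58 and log2 was taken. Log2 changes are given ± SE with limma's adjusted p, called at 0.05, and intensities as mean ± SD. A fold is written "at least" where every array of the lower group was at that floor, and where only some were, its size depends on the floor. Array medians ran from 54 to 209, with E81 SRFdM-VP16 replicate 1 lowest. Since the labels leave the origin of the duplicates unstated, separate cultures or not, a p-value here covers just the spread among these arrays, which may be technical.

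In the -/- lines, SRF-VP16 raised 4 of the 7 member probe sets over SRFdM-VP16, for Nppb, Tnnc1, Atp2a1 and Actn3, against 2.82% of all 9643 probe sets called in either direction and 2.48% called higher. Of all calls 239 were higher and 33 lower, which became 238 and 109 after quantile normalization and 167 and 121 after division by the array median. Nppa, Tnnt2 and the other Actn3 probe set did not pass, and no member fell. The members had been picked with earlier results of these arrays known, so the count describes them and is no test. Because RNA of whole cultures was measured, more cells that express a gene and more RNA per cell cannot be told apart.

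Nppb had the brightest signal of the members. With SRF-VP16 it read 3182 and 6299 in E81 and 12301 and 7286 in E100, against -66 and 30 in E81 and 172 and 135 in E100 with SRFdM-VP16. With vector it read 7 and 95 in E81 and 96 in E100. Every -/- array with SRF-VP16 thus lay far above every control array, and Nppb stood at the 91.0 to 98.1 percentile of those 4 arrays. The means were 7267 ± 3784 with SRF-VP16 and 67.8 ± 108 with SRFdM-VP16 (n = 4 each), a log2 change of 6.11 ± 0.31 (limma, adjusted p = 1.1e-07), or 69.3-fold on the floored scale. By size of rise Nppb was number 8 of the 9643 probe sets. Taken line by line, the change was 6.27 in E81 (adjusted p = 6.9e-06) and 5.96 in E100 (adjusted p = 1.3e-05), and with vector as the control it was 6.27.

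Nppb also stood above the controls in the other lines, at a lower level. In E99 it read 237 and 310 with SRF-VP16, against 41 and 0 with SRFdM-VP16 and 64 and 59 with vector. In E14 it read 487 and 335 with SRF-VP16, against 22 and 57 with SRFdM-VP16 and 86.1 and 75 with vector. The 4 SRF-VP16 arrays of these lines were at the 56.2 to 66.3 percentile of their arrays and did not overlap any control array of any line. Neither line alone passed, with log2 changes of 2.22 ± 0.43 in E99 (at least 4.67-fold, limma adjusted p = 0.15) and 2.80 ± 0.43 in E14 (at least 6.96-fold, limma adjusted p = 0.057). Both lines together, a comparison added after the data were seen, gave 2.51 ± 0.31 (at least 5.70-fold, limma adjusted p = 0.0043), where 0.0415% of all probe sets were called and 0.0207% called higher. That call was lost with the floor at the 60th percentile of all values, at which the change read 0.22.

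Nppa lies next to Nppb on chromosome 4 and did not follow it. With SRF-VP16 it read 771 and 364 in E81 and 574 and 467 in E100, against 767 and 98 in E81 and 407 and 220 in E100 with SRFdM-VP16. With vector it read 260 and 371 in E81 and 602 in E100. The groups overlapped, and control arrays reached as high as arrays with SRF-VP16. The log2 change in the -/- lines was 0.87 ± 0.68 (limma, adjusted p = 0.66), with a 95% interval of -0.59 to 2.33 that takes in both no change and a several-fold rise. In E99 the SRF-VP16 arrays split, at 550 and -24, against 561 and 510 with SRFdM-VP16 and 127 and 175 with vector, and in E14 they read 391 and 387, against 366 and 236 with SRFdM-VP16 and 140.3 and 141 with vector. Nppa was well above the floor in most control arrays, where it ran from 98 to 767, with a median of 260 over the 15 arrays.

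Tnnc1 was read above the floor in every -/- array with SRF-VP16 and in none of the 15 control arrays. It passed the filter only through those -/- arrays, at the 60.7 to 84.0 percentile, and every other array was at 38.1 or lower. Its entry into the tests thus rests on the group where it is high. Tnnc1 kept its call in the -/- lines without a filter. With SRF-VP16 it read 337 and 2011 in E81 and 1464 and 975 in E100, against -207 and -163 in E81 and -106 and -156 in E100 with SRFdM-VP16. With vector it read -7 and -45 in E81 and -13 in E100. The means were 1197 ± 712 with SRF-VP16 and -158 ± 41.4 with SRFdM-VP16 (n = 4 each), a log2 change of 4.10 ± 0.38, or at least 17.1-fold (limma, adjusted p = 6.2e-05), which ranked number 28. The 2 E81 arrays differed from each other more than the 2 E100 arrays did, and each line passed alone, with 3.83 in E81 (adjusted p = 0.0034) and 4.36 in E100 (adjusted p = 0.00073). The call was lost in a fit of these 8 arrays alone (adjusted p = 0.074), and with the floor at the 60th percentile the change was 1.72 (adjusted p = 0.038). Since all 15 control arrays were at the floor, those groups added no spread to the fit. The SE and adjusted p of Tnnc1 thus understate the spread of arrays above the floor, such as 337 and 2011 in E81.

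In the lines with a wild-type allele Tnnc1 stayed at or near the floor with SRF-VP16. It read 41 and 19 in E99 and 66 and -3 in E14, against -148 and -182 in E99 and -139 and 40 in E14 with SRFdM-VP16. The log2 change was 0.00 in E99 and 0.09 ± 0.54 in E14, and since at most 1 array was above the floor these values bound nothing below it.

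Tnnt2, the partner of Tnnc1 in the cardiac troponin complex, was dim in every group. With SRF-VP16 it read 61 and 96 in E81 and 135 and 91 in E100, against -9 and 62 in E81 and 72 and 106 in E100 with SRFdM-VP16, and with vector it read 32 and 113 in E81 and 93 in E100. The groups overlapped, and over all 23 arrays the signal ran from -9 to 151. The log2 change in the -/- lines was 0.35 ± 0.32 (limma, adjusted p = 0.73), with a 95% interval of -0.34 to 1.03.

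Atp2a1 rose in the -/- lines from a dim probe set. With SRF-VP16 it read 124 and 220 in E81 and 134 and 289 in E100, against -40 and -9 in E81 and 52 and 91 in E100 with SRFdM-VP16. With vector it read 31 and 81 in E81 and 19 in E100, so that all 4 SRF-VP16 arrays lay above all 7 controls of these lines, with the nearest pair at 124 and 91. The log2 change was 1.47 ± 0.24 (limma, adjusted p = 0.0044), 3 of the 4 SRFdM-VP16 arrays being at the floor, and neither line passed alone (1.51 in E81, adjusted p = 0.055, and 1.44 in E100, adjusted p = 0.066). The call was also lost with the floor at the 60th percentile, where the change was 0.00, and when just these 8 arrays were fitted (adjusted p = 0.19). With SRF-VP16 in E99 (40 and 58) and in E14 (32 and 58) it was at the floor. Its probe set name ends in _s_at, which marks probes shared between related transcripts. The probe set of the heart and slow-muscle pump Atp2a2, looked at after its values were seen, gave -0.01 ± 0.17. Its means were 19.3 ± 72.6 with SRF-VP16 and 13.3 ± 94.5 with SRFdM-VP16. Both means lie under the floor of 58, where a change cannot be measured. Whether the Atp2a1 probe set also reads related transcripts was not tested.

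The 2 probe sets of Actn3 differed. Probe set 100879_at read 415 and 263 in E81 and 673 and 381 in E100 with SRF-VP16, against 87 and -90 in E81 and 202 and 243 in E100 with SRFdM-VP16. The 4 arrays of each group did not overlap, but E81 with vector, at 289 and 126, reached into the range of SRF-VP16. The log2 change was 1.71 ± 0.38 (limma, adjusted p = 0.025), and it was lost in 11 of 20 other settings, among them both other scalings (adjusted p = 0.11 after quantile normalization and 0.14 after division by the array median), vector as the control (1.33, adjusted p = 0.12), and leaving out any 1 of 4 arrays. The other probe set, 100166_at, was at the floor in 13 of the 15 control arrays and gave 0.63 ± 0.27 (adjusted p = 0.32). It read 76 and 131 in E81 and -37 and 176 in E100 with SRF-VP16, and passed without the array that read -37 (1.03, adjusted p = 0.0105).

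In E99, probe set 100879_at ran the other way, at 222 and 228 with SRF-VP16, against 570 and 302 with SRFdM-VP16 and 449 and 355 with vector. In E14 it read 354 and 238 with SRF-VP16, against 208 and 221 with SRFdM-VP16 and 360.4 and 185 with vector. Neither change passed, with -0.88 ± 0.53 in E99 and 0.44 ± 0.53 in E14 (limma, adjusted p = 1 in each).

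**Figure D1:**
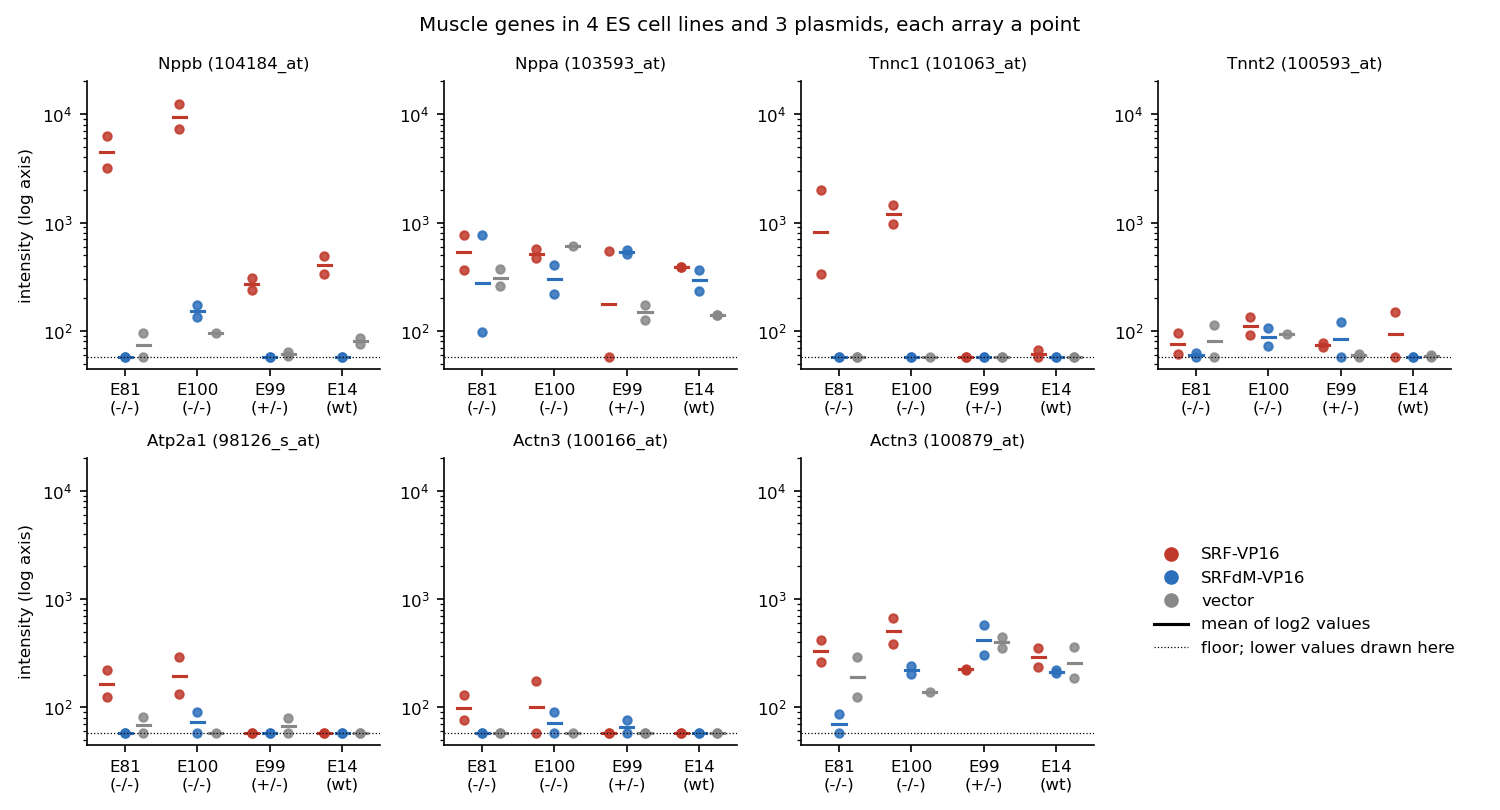
Intensity of the 7 member probe sets (log axis, no unit) in the 4 lines, 1 point for each array and a bar at the mean of the log2 values of a group; red is SRF-VP16, blue SRFdM-VP16 and grey vector, and values under the floor of 58 are drawn on the dotted line. Nppb stands above all controls in all 4 lines and highest in E81 and E100, Tnnc1 is off the floor in E81 and E100, and Nppa and Tnnt2 overlap between plasmids.

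Averaged over the 4 lines, 8 arrays against 8, 3 of the 7 member probe sets rose, against 1.96% of all probe sets called and 1.79% called higher. Nppb had a median of 1835 with SRF-VP16 (237 to 12301), against a highest value of 172 with SRFdM-VP16, and a change of 4.31 ± 0.22 (limma, adjusted p = 1.2e-07), number 8 of all rises. Tnnc1 changed by 2.07 ± 0.27 (limma, adjusted p = 0.0011) and Atp2a1 by 0.74 ± 0.17 (limma, adjusted p = 0.043). These 2 means rest on the -/- lines, since both genes read at or near the floor in E99 and E14, and the Atp2a1 call was lost in 17 of 26 other settings. Actn3 (0.74 ± 0.27, adjusted p = 0.22), Tnnt2 (0.30 ± 0.23, adjusted p = 0.65) and Nppa (0.14 ± 0.48, adjusted p = 0.95) did not pass.

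In E14 alone and in E99 alone, limma called 0 of the 7 member probe sets, where 0.0207% and 0.0415% of all probe sets were called and 346 and 432 had an unadjusted p under 0.05. Nppb was the member with the largest change in both lines, number 13 of all rises in E14 and number 62 in E99.

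Whether the response differed between the -/- lines and each of E14 and E99 was tested as a difference of the 2 effects. Wild type and +/- were each a single line. Genotype therefore cannot be told apart from other differences between lines, such as plasmid uptake. The Nppb response was larger in the -/- lines than in E14 by 3.31 ± 0.53 (limma, adjusted p = 0.041) and larger than in E99 by 3.89 ± 0.53 (adjusted p = 0.018). The Tnnc1 response was larger by 4.0 ± 0.66 than in E14 (adjusted p = 0.042) and by 4.10 ± 0.66 than in E99 (adjusted p = 0.038). These were 2 of 7 member probe sets in each test, against 0.083% and 0.0726% of all probe sets called, and 0.083% and 0.0622% called higher. The calls sat close to the threshold. For Tnnc1 every SRF-VP16 and SRFdM-VP16 array of E99 was at the floor, which set its E99 effect to 0. The Tnnc1 difference against E99 is thus the -/- effect itself. In E14 only SRF-VP16 replicate 1, at 66, was above the floor. A Tnnc1 response below the floor in these lines could not be measured. Tnnc1 had also passed the filter only through the -/- arrays with SRF-VP16. Under an inverse hyperbolic sine transform in place of the floor and log2, the calls of both genes were lost in both tests. With a term for the replicate number as a block both calls against E14 were lost (adjusted p = 0.062 for each gene), and against E99 Tnnc1 was lost (adjusted p = 0.069) and Nppb was not (adjusted p = 0.030). The count against E14 was 0 without either SRFdM-VP16 array of E14, and that against E99 was 0 without either SRFdM-VP16 array of E99. Without single arrays the sizes moved between 3.04 and 3.58 for Nppb and between 3.36 and 4.65 for Tnnc1 against E14. Atp2a1 (1.47 ± 0.42, adjusted p = 0.45 against E14 and 0.43 against E99), Actn3, Nppa and Tnnt2 were not called in either.

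The levels reached with SRF-VP16 were also compared directly, 4 -/- arrays against 2 of E14. Nppb was higher in the -/- lines by 4.01 ± 0.37 (16.1-fold, limma, adjusted p = 0.00028), Tnnc1 by 4.0 ± 0.47 (adjusted p = 0.0016) and Atp2a1 by 1.64 ± 0.30 (at least 3.11-fold, adjusted p = 0.030), which is 3 of 7, against 0.456% of all probe sets called and 0.436% called higher. The Atp2a1 call was lost under both other scalings. With the control plasmids, 7 -/- arrays against 4 of E14, limma called 0 members, where 0.083% of all were called and 609 had an unadjusted p under 0.05, and Nppb read -66 to 172 in the -/- lines and 22 to 86.1 in E14.

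The 2 -/- lines were compared with each other. Limma called 0 members in the difference between E81 and E100, where 0.145% of all were called and 1040 had an unadjusted p under 0.05. Nppb differed by 0.31 ± 0.61 and Tnnc1 by -0.54 ± 0.76, while the median of all probe sets was 0.52, so values in this comparison lie on a shifted scale. The 95% intervals were -1.0 to 1.63 for Nppb and -2.18 to 1.10 for Tnnc1, wide enough to hold a difference of more than 2-fold for each. Without E81 SRF-VP16 replicate 2, where Tnnc1 read 2011, the Tnnc1 difference was -1.83 (adjusted p = 0.012).

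SRFdM-VP16 itself did not change a member detectably. Against vector over the 4 lines limma called 0 of 7, where 0.799% of all were called and 1345 had an unadjusted p under 0.05, and the median of all probe sets was -0.20; the 3 higher and 74 lower calls became 1 and 0 under either other scaling. Nppb changed by -0.06 ± 0.23, and the largest member value was 0.43 ± 0.51 for Nppa. Tnnc1 was at the floor in all 15 arrays and has no measured difference.

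**Figure D2:**
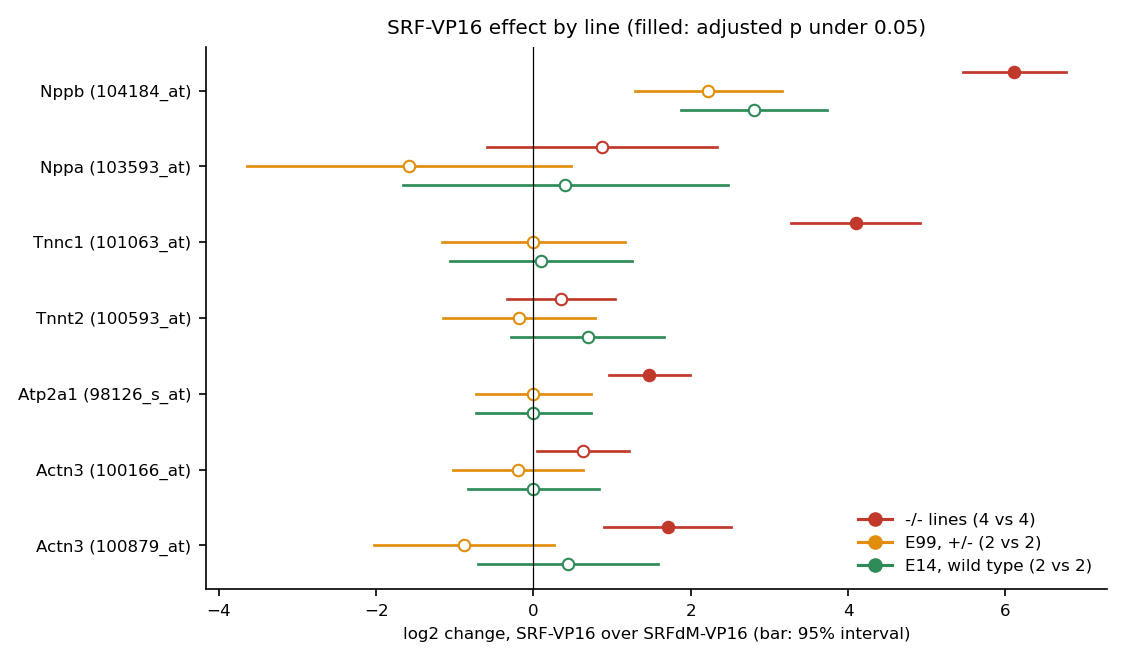
Log2 change of each member probe set with SRF-VP16 over SRFdM-VP16 and its 95% interval, for the -/- lines (red, 4 arrays against 4), E99 (orange, 2 against 2) and E14 (green, 2 against 2); filled points have an adjusted p under 0.05. Nppb lies right of 0 in all 3, and Tnnc1, Atp2a1 and Actn3 100879_at are filled in the -/- lines.

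Ordered by group mean, Nppb was highest in E100 (9794), then E81 (4741), E14 (411) and E99 (273.5), all with SRF-VP16, and next in E100 with SRFdM-VP16 (153.5). None of these neighbours overlapped, with 2 arrays in each group. E100 (96, 1 array) and E14 (80.6) with vector followed without overlap, and from E99 with vector (61.5) down to E81 with SRFdM-VP16 (-18), each group overlapped the next. Tnnc1 was highest in E100 (1220) and E81 (1174) with SRF-VP16, which overlapped, and no other group mean was above 31.5. For Nppa the highest of the 12 means was that of E100 with vector (602, 1 array), and overlap was broken between neighbours only at E14 with SRF-VP16.

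Over the 12 group means on the floored log2 scale, Tnnc1 and Atp2a1 had Pearson's r of 0.98, Nppb and Tnnc1 0.94, Nppb and Atp2a1 0.91, and Nppb and Nppa 0.44. The points share arrays and 2 groups carry most of the range, so these are descriptions. Of the probe sets of other genes, Tmem37 (r = 0.98), Tuft1 (0.98) and Krt17 (0.98) had patterns most like Nppb. Zfr2 (0.99), Timp1 (0.99) and Crabp2 (0.98) were most like Tnnc1, and Zfr2 (0.97), Rnf149 (0.97) and Crabp2 (0.96) most like Atp2a1. H2bc22 (0.93), Prkar1b (0.81) and Ighv5-12 (0.79) were most like Nppa, and Fabp3 (0.83), Lgmn (0.83) and S100a1 (0.82) most like Actn3 100879_at. Tnnt2 and Actn3 100166_at spanned less than 1 on this scale and were left out. The Krt17, H2bc22, Ighv5-12 and S100a1 probe sets have names ending in _f_at, which can hybridise within a gene family.

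Besides Nppa and Nppb, which are each other's neighbours, 5 genes next to a member on its chromosome were tested, and none was called by limma in the -/- lines. 2510039O18Rik, the neighbour of Nppb away from Nppa, changed by 0.56 ± 0.33 (adjusted p = 0.53). Nisch beside Tnnc1 gave 0.12 ± 0.22, Pkp1 beside Tnnt2 0.75 ± 0.46, Sh2b1 beside Atp2a1 -0.29 ± 0.54 and Ctsf beside Actn3 -0.72 ± 0.57. Rabep2 beside Atp2a1 did not pass the filter, and the neighbours Clcn6, Sema3g, Lad1 and Zdhhc24 had no probe set with their name.

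The 6 members were then set beside 133 other genes of striated muscle in 7 lists, which were also chosen with earlier results known. Of these, 99 were on the array and 71 passed the filter, each counted by its brightest probe set. In the -/- lines 4 of the 71 rose with SRF-VP16 and 0 fell, beside the 2.82% called among all, and their median change was 0.22 against 0.04 for all probe sets. The 4 were the skeletal and cardiac alpha-actins Acta1 and Actc1, the stretch-responsive ankyrin repeat protein Ankrd1 and Nrap, an anchoring protein of the growing myofibril.

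Thin-filament genes held 2 of the 4, with 9 on the array, 6 tested and a median of 0.33. Acta1 read 11098 ± 6090 with SRF-VP16 and -148 ± 207 with SRFdM-VP16 (n = 4 each), a change of 7.45 ± 0.81, or at least 175-fold (limma, adjusted p = 0.00025). Actc1 read 8186 ± 2369 with SRF-VP16 and 721 ± 478 with SRFdM-VP16, a change of 3.71 ± 0.36 (adjusted p = 9e-05) by a _f_at probe set, and its other probe set gave 2.75 ± 0.36. The slow-muscle troponin T gene Tnnt1 (0.28 ± 0.28) and the beta-tropomyosin gene Tpm2 (0.26 ± 0.77, and -1.23 ± 0.82 by its other probe set), the 2 brightest of the rest, did not pass. Tnnc2 and Tnni2, the calcium-binding and inhibitory subunits of fast troponin, did not pass the filter and were at or below 0 on all 4 -/- arrays with SRF-VP16.

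Z-disc and membrane genes held the other 2, with 15 on the array, 13 tested and a median of 0.46. Ankrd1 read 130 to 456 with SRF-VP16 and -61 to 47 with SRFdM-VP16, a change of 1.99 ± 0.43, or at least 3.96-fold (limma, adjusted p = 0.022). Nrap read 1130 to 2876 with SRF-VP16 and 352 to 1036 with SRFdM-VP16, a change of 1.71 ± 0.39 (adjusted p = 0.031). Ankrd1 kept its call in 9 and Nrap in 10 of 20 other settings. The muscle intermediate filament Des did not pass here (1.44 ± 0.36, adjusted p = 0.053) and passed over all 4 lines (1.08 ± 0.26, adjusted p = 0.049), in 9 of 27 other settings there. The Z-disc gene Ldb3 gave -0.74 ± 0.65.

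No gene of the other 5 lists was called by limma in the -/- lines, where 1294 of all probe sets had an unadjusted p under 0.05. Thick-filament genes had 17 on the array, 9 tested and a median of 0.36, led in brightness by the fast myosin light chain Mylpf (-0.13 ± 0.48) and the perinatal myosin heavy chain Myh8 (0.36 ± 0.29). Genes of calcium handling and excitation, the list closest to Atp2a1, had 20 on the array, 18 tested and a median of -0.13, with the gap-junction gene Gja1 at -0.18 ± 0.42 and the calcium buffer Pvalb at 0.39 ± 0.28. Genes of muscle energy metabolism had 12 on the array, 8 tested and a median of 0.22. The fatty acid binding protein Fabp3 read 10697 ± 8211 with SRF-VP16 and 2316 ± 2268 with SRFdM-VP16, which gave 3.09 ± 1.37 (adjusted p = 0.34), and the muscle enolase Eno3 gave 0.34 ± 0.27.

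Muscle transcription factors had 19 on the array, 13 tested and a median of 0.00, with Mef2d at 0.28 ± 0.26 and Mef2b at -0.05 ± 0.34. The list summed to 5530 to 6753 on the -/- arrays with SRF-VP16 and to 4742 to 7828 with SRFdM-VP16. The cardiac factor Nkx2-5 and the early heart-field factor Mesp1 were at or below 0 on all 4 of these arrays with SRF-VP16. Neither passed the filter, and their means over all 23 arrays were -919 and -479, so low readings were not particular to SRF-VP16. In the natriuretic peptide pathway, with 7 genes on the array, 4 tested and a median of 0.37, the prohormone-cleaving protease Furin read 2062 ± 370 with SRF-VP16 and 1159 ± 323 with SRFdM-VP16 (0.86 ± 0.30, adjusted p = 0.20), and the clearance receptor Npr3 gave -0.66 ± 0.42. The protease Corin, which cleaves the atrial prohormone, did not pass the filter and was at or below 0 on all 4 -/- arrays with SRF-VP16.

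Genes at the floor on all 4 SRFdM-VP16 arrays and above it on all 4 SRF-VP16 arrays of the -/- lines were counted as a description with no test. These were Tnnc1 among the 7 member probe sets, Acta1 and Ankrd1 among the 99 other muscle genes, and 32 of the 12436 probe sets without controls. At the other end, 6 of the 17 thick-filament genes, Myh2, Myh3, Myh7, Myl2, Myom1 and Myom2, were at or below 0 on all 4 -/- arrays with SRF-VP16. The same held for the ryanodine receptor Ryr2, the sarcoglycan Sgca, the guanylyl-signalling kinase Prkg2 and, in the metabolism list, Mb, Pgam2 and Car3. These genes are named for their low values after they were seen, and none of them passed the filter. Such readings were not particular to SRF-VP16. In the -/- lines 5 of the 17 thick-filament genes were at or below 0 on all 4 SRFdM-VP16 arrays, and 4 on all 3 vector arrays. The share of all probe sets at or below 0 on all 4 arrays was not counted. Over all 4 lines 4 of the 71 genes rose, Acta1, Actc1, Ankrd1 (1.73 ± 0.30, adjusted p = 0.0091) and Des, beside the 1.96% called among all.

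**Figure D3:**
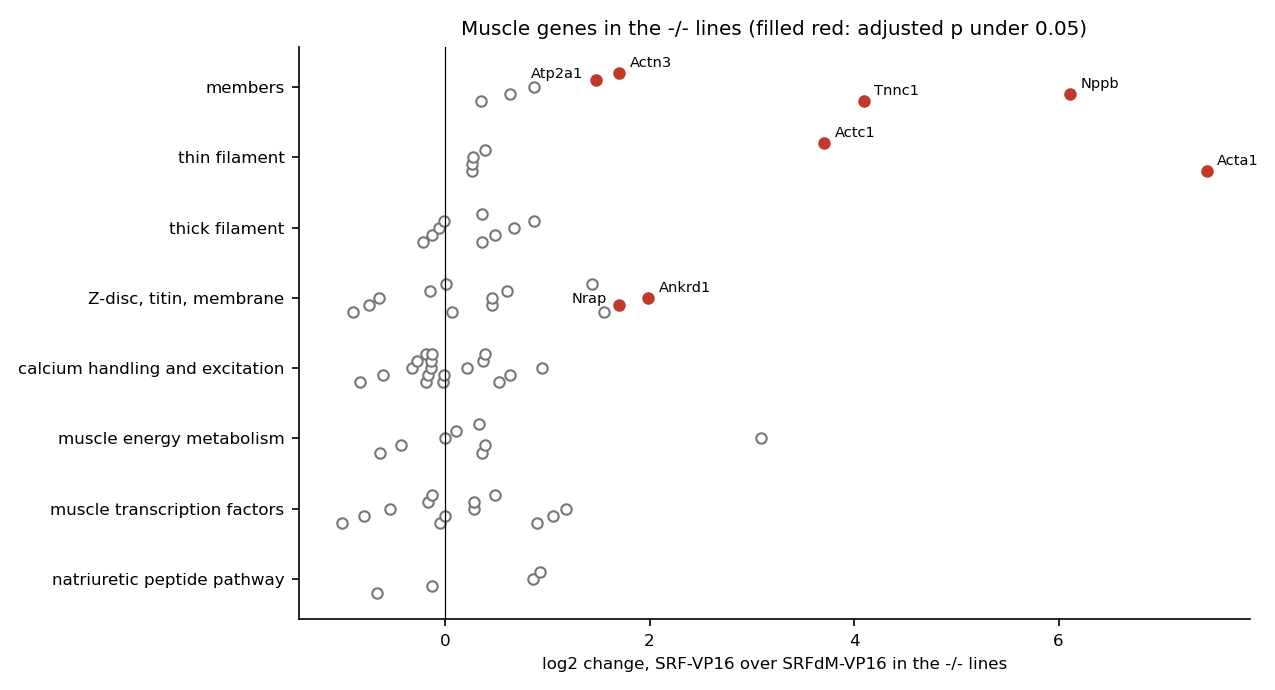
Log2 change with SRF-VP16 over SRFdM-VP16 in the -/- lines for the 7 member probe sets and for the tested genes of 7 muscle lists, 1 point for each; filled red points have an adjusted p under 0.05 and are named. The filled points lie among the members, the thin filament and the Z-disc list, while the thick-filament, calcium-handling, metabolism, transcription-factor and natriuretic-pathway lists hold open points.

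The labelled cell type and the markers of other cell types were read on the same arrays. All 12 ES cell markers were on the array and passed the filter, and Pou5f1 read 16641 ± 7282 with SRF-VP16 and 23262 ± 6477 with SRFdM-VP16 in the -/- lines. Summed over the 12, the -/- arrays read 39787 to 67691 with SRF-VP16 and 57541 to 113617 with SRFdM-VP16. Fgf4 fell by 1.15 (SE 0.22, limma adjusted p = 0.012) and the other 11 did not pass. The median change of the 12 in the -/- lines was -0.67, against 0.04 for all probe sets. Of 8 smooth-muscle markers on the array, 6 were tested and 3 rose, Tagln, Acta2 and Actg2, where 2.48% of all probe sets were called higher. The Actg2 probe set has a name ending in _f_at, and whether it also reads other actins was not tested. The 8 summed to 45259 to 62106 with SRF-VP16 and to 3045 to 7920 with SRFdM-VP16. In E14 and E99 this sum was 12549 to 38032 with SRF-VP16 and 6264 to 29504 with SRFdM-VP16. The high E14 control value came from an array numbered 2. On the 2 E14 control arrays of that number Nppb (57 and 75) was not high. Tnnc1 (40 and -98) was under the floor there, though 40 was its highest value on the 15 control arrays.

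Primitive-endoderm markers summed to 8175 to 14927 on the -/- arrays with SRF-VP16 and to 3552 to 8844 with SRFdM-VP16, with 10 on the array, 9 tested and 0 called. Their median change was 0.21, against 0.04 for all probe sets, and the brightest of them, Sparc, gave 2.11 ± 0.53. By their brightest probe sets Lama1 (-0.92), Gata4 (-0.79) and Dab2 (-0.63) read lower, and the other tested ones higher. Fibroblast markers, which a feeder layer would bring, summed to 1163 to 2156 with SRF-VP16 and to 708 to 1352 with SRFdM-VP16, with 7 on the array, 6 tested and 0 called. Of 6 early mesoderm markers 2 were tested and 0 called. Mesp1 and Fgf8, which did not pass the filter, were at or below 0 on all 4 -/- arrays with SRF-VP16. The part of the cells behind these markers in the rises of Nppb, Tnnc1, Atp2a1 and Actn3 was not tested.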

How the data were processed

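Each array had 1 intensity per probe set in the authors' deposited table; how they were computed, corrected and scaled is not given in the sources used here. Values were used as deposited, without rescaling, since 29.1% of them were at or below 0 and array medians ran from 54 to 209; quantile normalization and division by the array median were alternatives. The 66 controls among the 12502 probe sets were dropped, and 9643 of the rest were kept because they lay above the 40th percentile of their array in at least 2 arrays. Names came from the platform annotation (10141 probe sets with 1 symbol, 362 with several and 1933 with none, of 12436; 10122 symbols matched the gene table of GRCm38.p6, and 0 changed).

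Models were fitted in R 4.3.3 with limma 3.58.1, taking 1 mean for each of 12 groups over 23 arrays, an intensity trend, 11 residual degrees of freedom, two-sided tests and Benjamini-Hochberg adjustment at 5% over all 9643; all groups share 1 estimate of the spread. The procedure was run on simulated data for the -/- comparison alone. Those data held no ties at the floor, so the run covers neither such ties nor the tests of differences between lines. The number of arrays limits the precision.

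Named genes were all member probe sets; in each muscle list the genes called in the -/- lines or over all lines and the 2 brightest not called; the 3 probe sets most like each member (Pearson's r over the group means); the neighbours of the members; and the ES cell markers. Genes at or below 0 and Atp2a2 were named after their values were seen. The members, lists and tests were chosen with earlier results of these data known. The comparison of E14 and E99 together and the CArG-like motif were added after seeing the data of this work. Alternatives were other scalings, a higher floor, an inverse hyperbolic sine transform without a floor, other filters, the 2 wild-type control arrays numbered 2 left out, a term for the replicate number, no trend, each array left out in turn, each -/- line by itself, vector in place of SRFdM-VP16, and a fit of just the arrays compared.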

Additional observations from a re-analysis of the deposited data

Results flagged for a closer look

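For Nppb and Tnnc1 the response to SRF-VP16 differed between the -/- lines and each of E14 and E99 by a test of the difference itself. Wild type and +/- are each a single line, so genotype cannot be told apart from other differences between lines. For Nppb the effect in the -/- lines exceeded that in wild-type E14 by 3.31 on the log2 scale (SE 0.53, limma adjusted p = 0.041, 4 arrays against 4 in the -/- lines and 2 against 2 in E14), and that in E99 by 3.89 (SE 0.53, adjusted p = 0.018). For Tnnc1 it exceeded that in E14 by 4.0 (SE 0.66, adjusted p = 0.042) and that in E99 by 4.10 (SE 0.66, adjusted p = 0.038). All 4 -/- arrays with SRF-VP16 lay above both SRF-VP16 arrays of E14 and both of E99 for each gene. With the replicate number as a block, adjusted p was 0.062 for each gene against E14, and 0.030 for Nppb and 0.069 for Tnnc1 against E99. Adjusted p ran from 0.00039 to 0.30 for Nppb and from 1.2e-06 to 1 for Tnnc1 over the other settings against E14, and from 0.00028 to 0.19 and from 1.4e-06 to 1 against E99. All 15 control arrays of Tnnc1 and several of Nppb were at the floor, so the sizes depend on it. Groups wholly at the floor add no spread to the fit, so SE and adjusted p can be too small. Tnnc1 was also at the floor on both SRF-VP16 arrays of E99, which set its effect there to 0. It passed the filter only through the -/- arrays with SRF-VP16.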

How the results depend on the processing

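Of 1521 member values recomputed under 35 settings, 0 called values changed sign and 73 values called in neither setting did; 90 calls were lost and 9 gained. Nppb in the -/- lines and over all lines kept its call in every setting run, with changes of 4.43 to 6.76 and of 2.33 to 4.80. Tnnc1 in the -/- lines changed by 1.72 (floor at the 60th percentile) to 7.56 (inverse hyperbolic sine). In the -/- lines 4 member probe sets were called, 2 with the floor at the 60th percentile, 2 in E81 alone, 2 in E100 alone, 1 with only the arrays of the comparison, and 3 to 4 without single arrays; all other settings kept 3 or more. Of the other muscle genes 4 were called, 2 in E81 alone, 2 in E100 alone, 1 with only the arrays of the comparison and 2 to 5 without single arrays (3 to 4 over all lines). Over all lines 3 members were called, 1 with the floor at the 60th percentile and 2 to 3 without single arrays. In E14, 0 became 1 (Nppb) after quantile normalization, after division by the array median, without a filter or without the trend, and 0 to 1 without single arrays. In E99 it became 1 without the trend, and 0 without any array. The 2 calls in the difference between the -/- lines and E14 became 1 after division by the array median, with the floor or the filter at the 60th percentile, and 0 with the inverse hyperbolic sine, the replicate block, only the arrays of the comparison or without both wild-type control arrays numbered 2; without single arrays they were 0 to 2. Against E99 they became 1 after division by the array median, with the floor or the filter at the 60th percentile, with the replicate block, without the trend or with only the arrays of the comparison, 0 with the inverse hyperbolic sine, and 0 to 2 without single arrays. Between E81 and E100 0 became 1 only without E81 SRF-VP16 replicate 2 (0 to 1 without single arrays). The 3 calls between -/- and E14 with SRF-VP16 became 1 with the floor at the 60th percentile or the inverse hyperbolic sine, 0 with only the arrays of the comparison, and 2 to 4 without single arrays. E14 and E99 together went to 0 with the floor at the 60th percentile and stayed at 1 without any single array. SRFdM-VP16 against vector and the -/- lines against E14 with control plasmids stayed at 0. Against E14 the count was 0 without either SRFdM-VP16 array of E14 or of E100 or without E14 SRF-VP16 replicate 2, and against E99 it was 0 without either SRFdM-VP16 array of E99 or without E99 SRF-VP16 replicate 1. The other muscle genes fell to 2 without E100 SRFdM-VP16 replicate 2, E81 SRF-VP16 replicate 2 or E100 SRF-VP16 replicate 1. Over 55 pairs of groups the correlation of the deviations of same-numbered arrays ran from -0.39 to 0.42 and was over 0.1 in 29, so the numbers as labelled were not taken as pairs. The signs had a pattern: all 24 correlations between 3 groups (E14 SRF-VP16, E99 SRFdM-VP16 and E99 vector) and the other 8 were negative, and all 3 among those 3 groups and all 28 among the other 8 were positive. A shared structure with numbers exchanged in those 3 groups was not tested, and no block by such sets was run, since the labels do not give them. The replicate block moved no other member count by over 1.5 times. The cause of these moves was not tested.

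Scaling moved the split of all calls in the -/- lines, from 239 higher and 33 lower to 238 and 109 after quantile normalization and 167 and 121 after division by the array median, with medians of all probe sets of 0.04, -0.04 and -0.16; over all lines it was 173 and 16, 168 and 73, and 124 and 214. SRFdM-VP16 against vector had 3 higher and 74 lower, and 1 and 0 under either other scaling. All calls in the -/- lines numbered 97 to 514 over these settings. Without the 1 array of E100 with vector, comparisons that use that group give no value. Dim members (Tnnt2, Atp2a1, Actn3 100166_at) lie close to the floor, which limits what a change in them can show.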
